A study of Homo sapiens with 4 samples.

Results

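The 10 genes described here are the transcription factors SNAI1, SNAI2, ZEB1, ZEB2, TWIST1 and TWIST2, which drive epithelial-mesenchymal transition (EMT), the cadherins CDH1, CDH2 and CDH11, and the intermediate filament gene VIM. They were chosen by symbol from the 23228 genes listed in the count tables, with earlier results of these data known. ES2, an established human ovarian cancer cell line, was treated for 24 h with vehicle (control) or with 100 μM liquiritigenin (Liq), a plant flavanone used in the study as an agonist of estrogen receptor β, with 2 samples per group. All cells were kept in phenol red-free RPMI-1640 with charcoal-treated serum. The dose and its use as an agonist come from the study's methods, and 1 cell line at 1 dose and 1 time limits what the groups can stand for. Total RNA was sequenced and 34573053 to 48933893 reads per library were counted on genes.

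EMT is the passage of a cell from an epithelial state, in which E-cadherin holds neighbours together, to a motile mesenchymal state rich in N-cadherin and vimentin. SNAIL, ZEB and TWIST factors bind short E-box sequences and repress E-cadherin and other epithelial genes. The microRNAs of the miR-200 family hold ZEB1 and ZEB2 down in epithelial cells, and the ZEB factors repress the miR-200 genes in return.

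Of this circuit, the ES2 libraries of both groups held the transcription factors, N-cadherin and vimentin, but not E-cadherin. Markers outside the 10 genes were mixed. The mesenchymal genes COL1A2, COL3A1 and POSTN had at most 7 counts per library. Among epithelial genes KRT7 and KRT18 had at least 5996 counts, and EPCAM 1 to 3. CDH1 (E-cadherin) and CDH11 had 0 counts in each of the 4 libraries, while VIM, CDH2 and all 6 transcription factors were counted in every library. With Liq, SNAI2 rose 1.30-fold, CDH2 rose 1.17-fold and VIM fell to 0.826 of the control level, all by less than 1.5-fold. SNAI1, ZEB1, ZEB2, TWIST1 and TWIST2 did not pass the test. Counts were compared by edgeR's quasi-likelihood test over the 13546 genes that passed a filter on low counts, with Benjamini-Hochberg adjusted p-values, and a gene was called changed at an adjusted p under 0.05 and a fold change of at least 1.5. Of the 10 genes, 8 passed the filter and 0 were called changed, against 6.45% of all tested genes (4.29% higher and 2.16% lower with Liq). DESeq2 also called 0 of the 8. In edgeR 4 of the 8 had an unadjusted p under 0.05 at any fold change, against at least 4672 of all 13546 tested genes. Of the 8, 0 had one together with a 1.5-fold change, against 7.85% of all tested genes. At an adjusted p under 0.05 with no limit on the fold change, 3 of the 8 passed (2 higher, 1 lower), against 24.0% of all tested genes (12.6% higher, 11.3% lower). Below, "rose" and "fell" refer to this second threshold. The median log2 fold change was -0.10 over the 8 genes and 0.006 over all tested genes.

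CDH2 and VIM passed the second threshold, and ZEB1 was the only 1 of the 5 genes searched that had the motif in question. The sequences upstream of these 3 genes are therefore shown. They are the 250 bases before the annotated start, 5′ to 3′, from RefSeq on GRCh38.p14, and capitals mark CACCTG or CAGGTG, the E-box core (the same motif read on either strand) that SNAIL and ZEB factors bind. The table used held windows for 5 of the 10 genes, namely ZEB1, ZEB2, TWIST2, CDH2 and VIM. The other 5, CDH1 among them, were not searched for the motif. ZEB1 had 7 windows and CDH2 had 2, and for each the first is printed. ZEB1 is at chr10:31318167-31318416 (plus strand), CDH2 at chr18:28177131-28177380 (minus strand) and VIM at chr10:17227991-17228240 (plus strand).
ZEB1: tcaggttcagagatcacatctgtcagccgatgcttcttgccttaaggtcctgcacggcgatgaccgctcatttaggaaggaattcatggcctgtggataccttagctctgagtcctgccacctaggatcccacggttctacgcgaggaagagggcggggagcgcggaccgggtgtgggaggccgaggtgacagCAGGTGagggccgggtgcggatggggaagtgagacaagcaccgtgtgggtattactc
CDH2: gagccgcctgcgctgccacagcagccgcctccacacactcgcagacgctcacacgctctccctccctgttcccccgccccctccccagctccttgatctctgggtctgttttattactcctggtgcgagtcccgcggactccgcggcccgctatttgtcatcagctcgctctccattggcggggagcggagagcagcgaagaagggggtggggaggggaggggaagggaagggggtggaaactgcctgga
VIM: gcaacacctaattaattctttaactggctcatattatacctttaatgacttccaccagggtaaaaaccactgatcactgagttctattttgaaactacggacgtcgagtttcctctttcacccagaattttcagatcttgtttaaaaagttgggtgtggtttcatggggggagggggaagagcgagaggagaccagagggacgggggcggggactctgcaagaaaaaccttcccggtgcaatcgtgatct
In the printed ZEB1 window CAGGTG begins 57 bases before the start. The core was found in 2 of the 12 windows of the 5 genes, both of ZEB1, and in 17.5% of all 35116 upstream windows of this length in the table. The wider E-box CANNTG, which TWIST factors bind and which contains the core, was in 61.8% of all windows. Of the 5 genes, 3 had it in at least 1 window. This count by gene cannot be set against the share by window, because genes differ in their number of windows. The printed windows of CDH2 and VIM had no CANNTG. A match is a description of letters only.

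The SNAIL factors SNAI1 and SNAI2 are zinc finger repressors of E-cadherin, and in ES2 cells they differed widely in level. Values are in CPM, counts scaled to library size by the TMM method. SNAI2 (ENSG00000019549, chromosome 8 from 49830157 to 49834299, GRCh37, 3 exons), also called Slug, was at 93.4 and 101 CPM in the controls and at 126 CPM in each Liq sample. Both Liq samples lay above both controls. The log2 fold change was 0.38 (SE 0.07, 95% interval 0.22 to 0.53, adjusted p = 0.000543 from edgeR), and without control replicate 1 it was 0.32 with an adjusted p of 0.067 (edgeR). SNAI1 (ENSG00000124216, chromosome 20 from 48599517 to 48605423) had 72 and 73 counts in the controls and 50 and 79 in the Liq samples, or 1.75 and 1.95 CPM against 1.41 and 1.57 CPM. The Liq samples were below the controls after scaling, but the log2 fold change of -0.30 (SE 0.22) did not pass the test (adjusted p = 0.3304 from edgeR). Its 95% interval, -0.74 to 0.14, includes a fall of 1.5-fold. Per kilobase of transcript and within a library, SNAI2 counts were 41.7 and 40.3 times those of SNAI1 in the controls and 69.9 and 62.7 times in the Liq samples. This ratio did not overlap between the groups, and its difference was not tested.

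ZEB1 and ZEB2 are zinc finger and homeodomain repressors that act on the same E-box core. ZEB1 (ENSG00000148516, chromosome 10 from 31607424 to 31818742) was at 115 and 123 CPM in the controls and at 118 and 122 CPM in the Liq samples, so that the Liq values lay between the controls. The log2 fold change was 0.01 with a 95% interval of -0.14 to 0.16 (adjusted p = 0.933 from edgeR). ZEB2 (ENSG00000169554, chromosome 2 from 145121931 to 145278624) was at 106 and 109 CPM in the controls and at 92.7 and 97.3 CPM in the Liq samples. Both Liq samples were below both controls. The log2 fold change of -0.17 (95% interval -0.33 to -0.02) did not pass after adjustment (adjusted p = 0.0922 from edgeR), whereas without Liq replicate 2 the adjusted p was 0.0417. The ratio of ZEB1 to ZEB2 counts per kilobase was 1.69 and 1.77 in the controls and 1.99 and 1.95 in the Liq samples. ZEB1-AS1, a noncoding gene transcribed from the opposite strand at the start of ZEB1, was at 10.6 and 10.8 CPM in the controls and 13.5 and 12.4 CPM with Liq, and did not pass the test (adjusted p = 0.0674 from edgeR). The counting is not stated to use strand, so ZEB1-AS1 is reported as uncertain.

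TWIST1 and TWIST2 are basic helix-loop-helix factors with closely related sequences. TWIST1 (ENSG00000122691, chromosome 7 from 19060614 to 19157259) had 814 and 654 counts in the controls and 611 and 961 in the Liq samples, or 19.8 and 17.5 CPM against 17.2 and 19.1 CPM. The groups overlapped, and the log2 fold change was -0.03 with a 95% interval of -0.25 to 0.18 (adjusted p = 0.844 from edgeR). TWIST2 (ENSG00000233608, chromosome 2 from 239756673 to 239832230) was at 9.27 and 7.99 CPM in the controls and at 8.86 and 6.65 CPM in the Liq samples. Its groups overlapped too, and the log2 fold change was -0.17 with a 95% interval of -0.45 to 0.11 (adjusted p = 0.388 from edgeR). The TWIST2 value rested on single libraries. It was -0.38 without Liq replicate 1 (adjusted p = 0.0332) and 0.03 without Liq replicate 2 (adjusted p = 0.879), both from edgeR. Reads with several equally good alignments were not counted, so any stretch that the pair shares can be undercounted.

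Cadherins join cells through their outer domains and bind catenins inside the cell, and of CDH1, CDH2 and CDH11 only CDH2 was counted. CDH2 (N-cadherin, ENSG00000170558, chromosome 18 from 25512843 to 25757910, 16 exons) had 4732 and 4275 counts in the controls and 4724 and 6748 in the Liq samples. In CPM this was 115 and 114 against 133 and 134, and both Liq samples lay above both controls. The log2 fold change was 0.22 (SE 0.07, 95% interval 0.07 to 0.37, adjusted p = 0.0265 from edgeR). It lost the threshold without control replicate 1 (0.23, adjusted p = 0.249) and without control replicate 2 (0.21, adjusted p = 0.266), with edgeR in each case. CDH1 (ENSG00000039068, chromosome 16 from 68771195 to 68869440) and CDH11 (cadherin 11, a cadherin of mesenchymal and bone-forming cells, ENSG00000140937, chromosome 16 from 64977656 to 65160015) had 0 counts in all 4 libraries. A count of 0 allows up to 3 counts, or 0.0613 to 0.0868 CPM per library, and covers counting error only. No fold change can be given for either. CDH2 counts were at least 1577 and 1425 times the CDH1 counts in the controls and at least 1575 and 2249 times in the Liq samples, taking 3 counts as the upper limit of CDH1 in each library. In the GENCODE annotation of GRCh37 the reference transcripts of these 10 genes shared no exon bases with another listed gene. The same check found no overlap for CTNND1 either, although the count tables list a readthrough gene, TMX2-CTNND1. It can therefore miss overlaps in the annotation used for counting, which is not given.

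VIM (vimentin, the type III intermediate filament of mesenchymal cells, ENSG00000026025, chromosome 10 from 17270240 to 17279592, 10 exons) ranked 2 or 3 among all genes by counts in every library. It took 0.736% and 0.719% of all gene counts in the controls and 0.667% and 0.602% in the Liq samples. In CPM this was 7604 and 7353 against 6480 and 5871, with both Liq samples below both controls. The log2 fold change was -0.28 (SE 0.05, 95% interval -0.38 to -0.17, adjusted p = 0.000341 from edgeR), and it passed in all 12 fits made, at -0.35 to -0.16. In bulk RNA, fewer transcripts per cell and a larger share of other transcripts cannot be told apart.

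**Figure D1:**
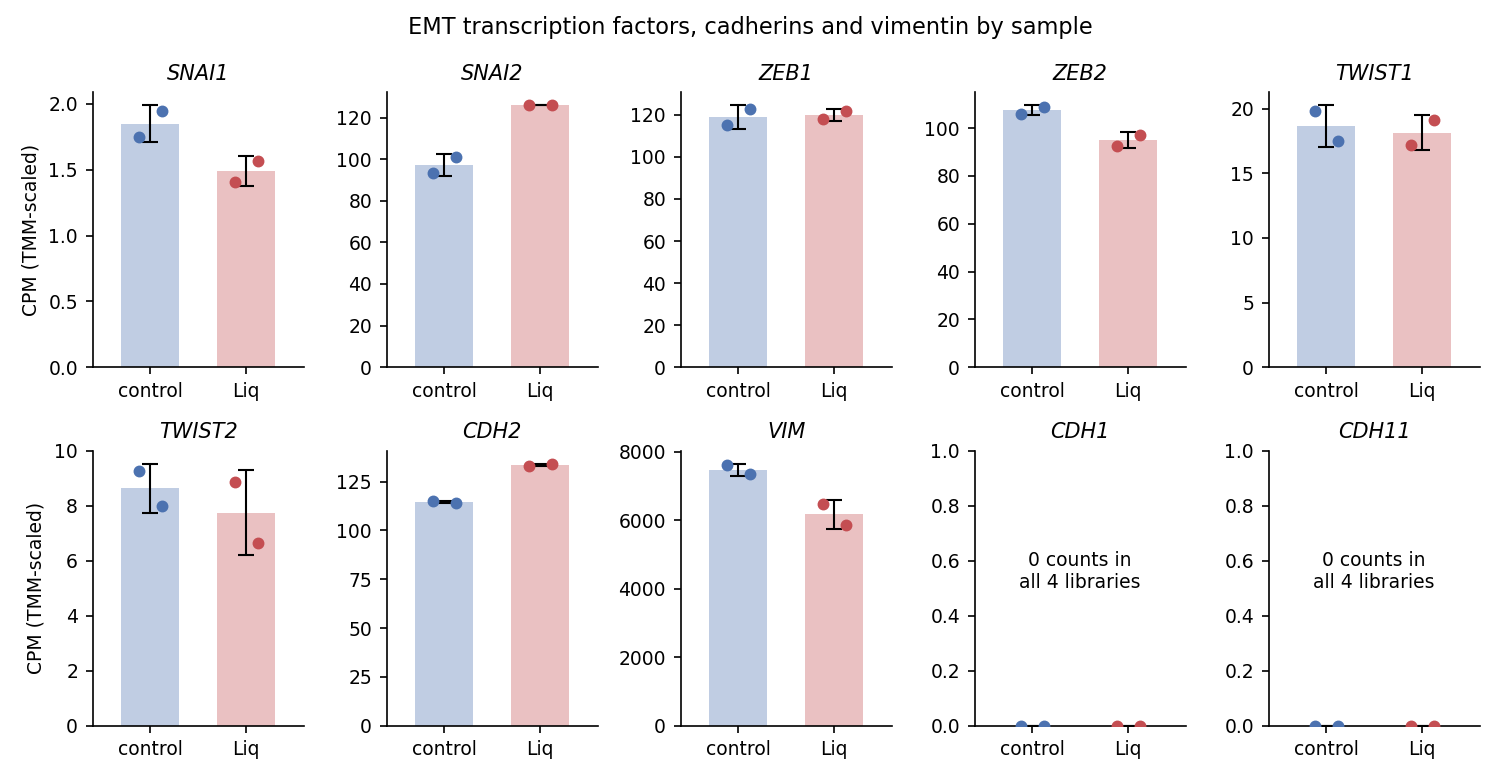
Levels of the 10 genes in CPM (TMM-scaled counts, y axes from 0) in control and Liq samples, with points for samples, bars for means and error bars for SD (n = 2). The Liq points lay above the control points for SNAI2 and CDH2 and under them for VIM, and CDH1 and CDH11 were at 0 throughout.

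Fold changes of the 8 tested genes are plotted with their 95% intervals. In 7 of the 8 the whole interval lay inside a 1.5-fold change in either direction, and SNAI1 was the exception. The Liq samples did not overlap the controls in 5 of the 8, against 61.7% of all tested genes. For a single gene in this design the smallest p of an exact permutation test is 0.3333, and the edgeR p-values above borrow their estimate of spread from all genes. Whether replicates were separate cultures is not given in the labels, and the p-values then measure only the spread between these samples.

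**Figure D2:**
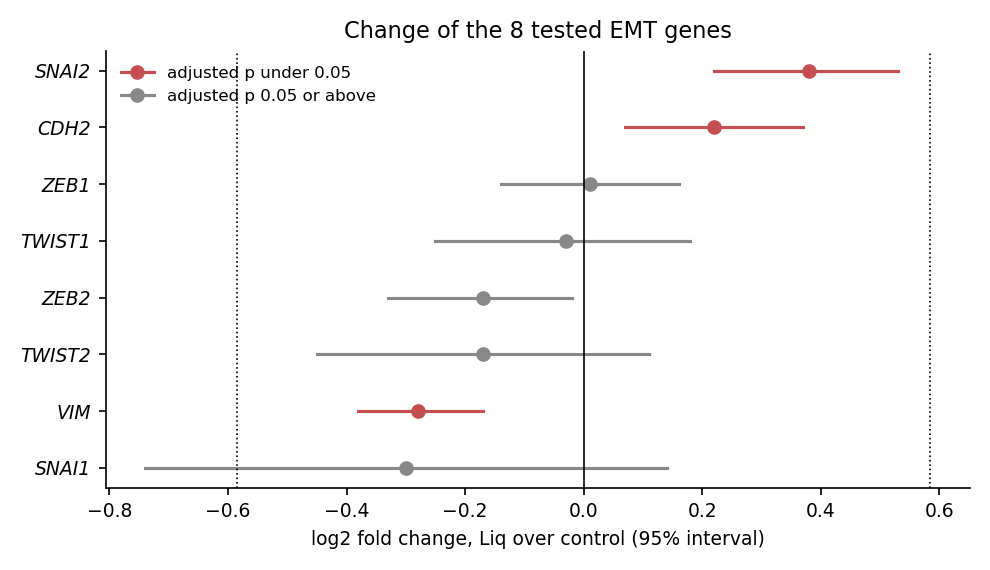
Log2 fold change (Liq over control, x axis) of the 8 tested genes with 95% intervals from edgeR, with dotted lines at 1.5-fold. The 3 red genes had an adjusted p under 0.05, and no point reaches a dotted line.

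For levels between genes, CPM was divided by the length of the reference transcript in kilobases (RPKM, mean of the 4 libraries). VIM was highest at 3170 RPKM, followed by SNAI2 at 51.1, CDH2 at 30.9 and ZEB1 at 20.1 RPKM. The ranges of these 4 over the libraries did not overlap. TWIST1 (11.3 RPKM), ZEB2 (10.9 RPKM) and TWIST2 (9.09 RPKM) came next, where TWIST1 overlapped ZEB2 and ZEB2 overlapped TWIST2, and SNAI1 followed at 0.980 RPKM. SNAI2 was therefore the most abundant of the 6 transcription factors and SNAI1 the least. With the length of all annotated exons in place of the reference transcript, ZEB2 and TWIST2 exchanged places and the rest of the order was the same.

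**Figure D3:**
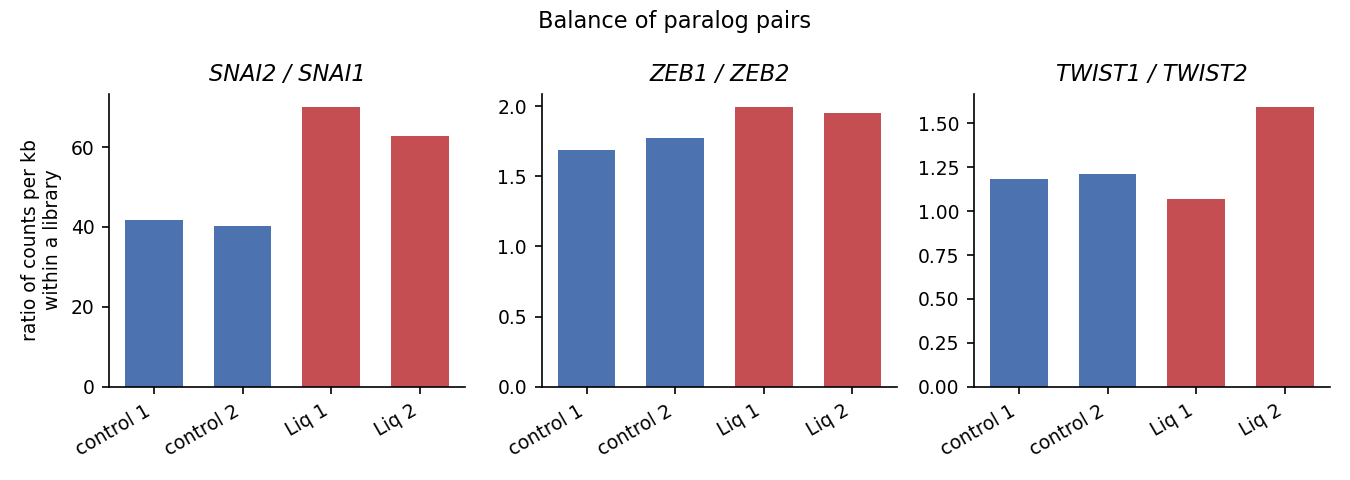
Ratio of counts per kilobase of SNAI2 to SNAI1, ZEB1 to ZEB2 and TWIST1 to TWIST2 within each of the 4 libraries (y axes from 0). The SNAI2 to SNAI1 ratio was 40.3 to 41.7 in the controls and 62.7 to 69.9 with Liq, and the TWIST1 to TWIST2 ratio overlapped between groups.

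The microRNAs of the miR-200 family, which target ZEB1 and ZEB2, share seeds (bases 2 to 8, in capitals), and are printed because they are the known counterweight to the ZEB factors counted above. Mature sequences are from RefSeq (GRCh38.p14), 5′ to 3′, and the first 3 share 1 seed and the last 2 another.
hsa-miR-200b-3p: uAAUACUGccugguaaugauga
hsa-miR-200c-3p: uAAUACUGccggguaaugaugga
hsa-miR-429: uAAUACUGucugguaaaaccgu
hsa-miR-200a-3p: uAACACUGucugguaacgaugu
hsa-miR-141-3p: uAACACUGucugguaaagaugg
The 5 loci MIR200A, MIR200B, MIR200C, MIR141 and MIR429, and MIR205, had 0 counts in all 4 libraries. These are counts of long RNA reads over the hairpin genes and do not measure mature microRNAs.

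Epithelial genes were examined from lists written from general knowledge. Of 17 epithelial transcription and splicing factors, 5 were at 0 in all libraries, among them GRHL2, an activator of CDH1. ESRP1, which directs epithelial splicing, had 2 and 3 counts in the controls and 11 and 8 with Liq, under the filter. Of the 6 tested, 1 rose (GRHL1), 2 fell and 3 did not pass, with a median log2 fold change of -0.28. FOXA2 fell from 38.6 ± 0.86 to 27.6 ± 1.2 CPM (SD, n = 2), by 0.49 on the log2 scale (adjusted p = 0.000215 from edgeR). KLF4 fell from 8.57 ± 0.063 to 6.03 ± 0.014 CPM (SD, n = 2), by 0.51 (adjusted p = 0.0035 from edgeR). Both were chosen for mention after their values were seen. Of the 6, 50% passed the adjusted p and 16.7% were called, against 24.0% and 6.45% of all tested genes. GRHL1 was at 1.49 ± 0.28 CPM in the controls and 2.26 ± 0.13 CPM with Liq (SD, n = 2). It rose by 0.61 on the log2 scale (adjusted p = 0.0341 from edgeR). It did not pass without control replicate 1 (0.43, adjusted p = 0.371), without Liq replicate 2 (0.55, adjusted p = 0.111) or with DESeq2 (adjusted p = 0.207). With offsets that follow the expression level GRHL1 did not pass either (0.44, adjusted p = 0.145 from edgeR), and the 1 gene of the list then called was lower with Liq. Without control replicate 1 the list had 0 called genes in place of 1.

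Of 36 epithelial adhesion and junction genes, 19 were tested, of which 3 rose, 2 fell and 14 did not pass. The shares past the adjusted p (26.3%) and called (5.26%) were near those of all tested genes (24.0% and 6.45%). EPCAM, an epithelial surface protein, had 1 to 3 counts per library. OCLN, the tight junction protein occludin, was the only 1 called at 1.5-fold. It had 0.973 and 1.71 CPM in the controls and 2.08 and 2.27 CPM with Liq, a log2 fold change of 0.72 (adjusted p = 0.0271 from edgeR). Its adjusted p was 0.491 without control replicate 1, 0.0651 without Liq replicate 2, when the list had 0 called genes, 0.108 with the offsets and 0.173 with DESeq2. The simple epithelial keratins KRT7, KRT8 and KRT18 were counted in all libraries, whereas KRT19, another of them, had only 1 to 3 counts per library. KRT7 rose from 252 ± 20 to 357 ± 29 CPM (SD, n = 2), by 0.51 on the log2 scale (adjusted p = 1.08e-05 from edgeR). KRT8 was at 23.8 ± 0.71 CPM and 26.1 ± 1.5 CPM (SD, n = 2, adjusted p = 0.318 from edgeR) in controls and Liq. KRT18 fell from 198 ± 8.9 to 167 ± 2.0 CPM (SD, n = 2). Its log2 fold change was -0.24 with an edgeR adjusted p of 0.0132, but it did not pass without control replicate 1 (adjusted p = 0.304), control replicate 2 (adjusted p = 0.0764) or with the offsets (adjusted p = 0.0751).

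Mesenchymal effector genes moved in both directions. Of 30 tested, 11 rose, 5 fell and 14 did not pass (53.3% passed, against 24.0% of all tested genes), with a median log2 fold change of 0.07. The 3 called at 1.5-fold (10% of those tested, against 6.45% of all tested genes) were ACTA2, PDGFRB and TNC, and without Liq replicate 2 there were 5. ACTA2, smooth muscle actin, rose from 3.75 and 3.10 CPM to 6.05 and 6.32 CPM, a log2 fold change of 0.85 (adjusted p = 0.0001108 from edgeR). PDGFRB, a growth factor receptor of mesenchymal cells, rose from 1.22 and 1.07 CPM to 2.50 and 2.03 CPM, a log2 fold change of 0.97 (adjusted p = 0.00223 from edgeR). TNC, the matrix glycoprotein tenascin C, fell from 227 and 213 CPM to 145 and 143 CPM, a log2 fold change of -0.61 (adjusted p = 3.53e-07 from edgeR). It was under 1.5-fold with upper-quartile scaling (-0.58), with offsets along the expression level (-0.54) and without control replicate 1 (-0.56), where its adjusted p was 3.98e-06, 2.70e-06 and 3.06e-05 from edgeR. FN1, fibronectin, was at 7727 ± 248 CPM in controls and 6954 ± 95 CPM with Liq (SD, n = 2). Its log2 fold change was -0.15, with an edgeR adjusted p of 0.0237. FN1 did not pass without control replicate 1 (adjusted p = 0.197), Liq replicate 1 (0.0573) or Liq replicate 2 (0.125), nor with upper-quartile scaling (0.0693), DESeq2 (0.0765) or the offsets (-0.03, 0.696).

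Of 20 other EMT-promoting transcription factors, 13 were tested, of which 0 rose, 3 fell and 10 did not pass, with a median log2 fold change of -0.16. The share that passed, 23.1%, was near the 24.0% of all tested genes. The 1 called at 1.5-fold was PRRX1, a homeobox factor of mesenchymal cells. PRRX1 (ENSG00000116132, chromosome 1 from 170631869 to 170708562) was at 90.6 and 94.2 CPM in the controls and at 52.4 and 56.9 CPM with Liq. Both Liq samples were far below both controls, with a log2 fold change of -0.76 (SE 0.08, 95% interval -0.92 to -0.59, adjusted p = 6.319e-08 from edgeR). At 18.1 RPKM its mean level was between those of ZEB1 and TWIST1.

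Of 20 other cadherins, 6 were tested and 0 were called by edgeR or by DESeq2, against 6.45% of all tested genes in edgeR. At any fold change 1 rose and the others did not pass (16.7% passed, against 24.0% of all tested genes). In edgeR 2 had an unadjusted p under 0.05, against at least 4672 of all 13546 tested genes. Without Liq replicate 2, 1 was called. CDH3 (P-cadherin) had 3 counts in 1 Liq library and 0 in the others. CDH6, a cadherin of kidney and ovarian tumours, was at 4.35 ± 0.79 and 3.60 ± 0.80 CPM (SD, n = 2) in controls and Liq, with an adjusted p of 0.302 from edgeR and of 0.0348 without Liq replicate 2. Of the 8 tested catenins and linkers, which tie cadherins to actin, 2 rose, 1 fell and 5 did not pass. The shares past the adjusted p and called were 37.5% and 25%, against 24.0% and 6.45% of all tested genes. The 2 called at 1.5-fold, ARVCF and CTNND2, became 1 without control replicate 1, control replicate 2 or Liq replicate 1, with the offsets and with DESeq2. CTNNA1, α-catenin, fell from 374 and 365 CPM to 294 and 293 CPM, a log2 fold change of -0.33 (adjusted p = 0.000518 from edgeR). CTNNB1, β-catenin, was at 416 and 386 CPM in controls and 367 and 372 CPM with Liq (log2 fold change -0.12, 95% interval -0.25 to 0.02, adjusted p = 0.201 from edgeR). ARVCF, a relative of p120 catenin, rose from 1.51 and 1.68 CPM to 3.57 and 3.15 CPM, a log2 fold change of 1.07 (adjusted p = 0.0001453 from edgeR). CTNND2 had 22 and 21 counts in controls and 47 and 39 with Liq (adjusted p = 0.0455 from edgeR), and it did not pass without control replicate 1 (0.210), control replicate 2 (0.147) or Liq replicate 1 (0.387), nor with the offsets (0.138) or DESeq2 (0.2203). CTNND1, p120 catenin itself, had 105 to 137 counts per library (adjusted p = 0.682 from edgeR) and is uncertain, because the count tables also list TMX2-CTNND1, a readthrough gene that shares its name and had 0 counts in all 4 libraries.

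Of 34 tested partners, corepressors and turnover factors of SNAIL, ZEB and TWIST, 1 rose, 6 fell and 27 did not pass (20.6% passed, against 24.0% of all tested genes). None was called at 1.5-fold by edgeR or DESeq2, against 6.45% of all tested genes in edgeR. In edgeR 8 had an unadjusted p under 0.05, against at least 4672 of all 13546 tested genes. LOXL2, which is also in the mesenchymal list, was the gene that rose, with a log2 fold change of 0.29 (adjusted p = 0.00332 from edgeR), and it was chosen for mention after its value was seen. Of the 7 tested intermediate filament genes, VIM alone passed (14.3%, against 24.0% of all tested genes) and 0 were called by edgeR or DESeq2. In edgeR 2 of the 7 had an unadjusted p under 0.05, against the same 4672 or more of all tested genes.

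**Figure D4:**
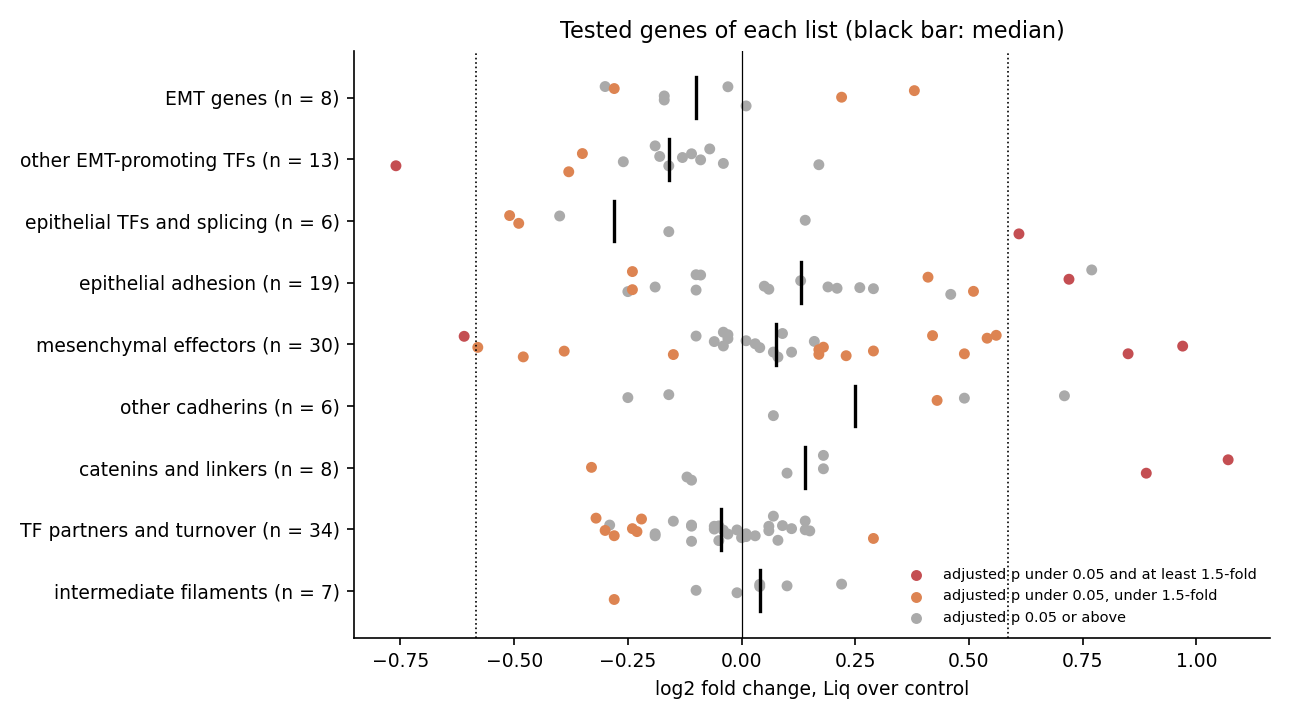
Log2 fold change (Liq over control, x axis) of each tested gene of 9 lists (rows), with black bars for medians and dotted lines at 1.5-fold. Red points passed both thresholds of a call, orange points only the adjusted p, and grey points not the adjusted p. PRRX1 at -0.76 is the lowest point, ARVCF at 1.07 the highest, and the points of the EMT genes lie between -0.30 and 0.38.

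Low counts need care in these data. The median log2 fold change was 0.154 in the tertile of tested genes with the lowest level and -0.056 in that with the highest, and the 1.5-fold call was made for 14.7% and 2.04% of them. SNAI1 and TWIST2 are in the lowest tertile, TWIST1 in the middle and the other 5 tested EMT genes in the highest. As a check of the labelled cells, the ovarian tumour marker KRT7 was at 238 to 378 CPM, while EPCAM and NAPSA had at most 8 counts and MUC16 at most 1. PAX8 (12 to 49 counts) and WT1 (98 to 181 counts), also ovarian lineage markers, were low and fell by 1.34 and 0.68 on the log2 scale (adjusted p = 0.00214 and 0.00285 from edgeR). Of 6 fibroblast markers all 3 that were tested rose (COL1A1, PDGFRB and THY1), while 12.6% of all tested genes rose. With DESeq2 only 1 of the 3 passed the adjusted p. The summed level of the 6 was 1166 to 1248 CPM in the controls and 1289 to 1435 CPM with Liq. COL1A1 made up nearly all of it, at 1245 and 1163 CPM in the controls and 1428 and 1284 CPM with Liq (adjusted p = 0.0457 from edgeR). The defining markers DCN and LUM had at most 1 count. The part of these markers in the results above was not tested. ESR2, which encodes the receptor that Liq is used to activate, had 4 and 7 counts in the controls and 5 and 14 with Liq, under the filter. The leukocyte markers PTPRC and CD3E had at most 1 count. CDH5, an endothelial cadherin, was at 44.6 to 52.9 CPM, whereas the endothelial genes PECAM1 and VWF had at most 10 counts.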

How the data were processed

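ES2 RNA was measured by RNA-seq in 4 samples (control and Liq, n = 2 each), grouped by their labels. Per the labels, reads were 100 bp single-end, and the submitters' processing notes name bcl2fastq 2.17.1.14, TopHat2 2.0.8b, HTSeq and hg19. The authors deposited raw counts per gene symbol, not normalized. The 5 closing tally rows hold 44.38% to 45.94% of the total over gene and tally rows (35.63% to 36.23% not uniquely aligned). They were left out, which lowers the values of genes that have near-identical copies. The depth was 34573053 to 48933893 counts on genes, and 3 counts were the limit that a count of 0 allows.

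Counts were filtered (filterByExpr, minimum count 10, minimum total 15), scaled by TMM and fitted with edgeR 4.0.16 (glmQLFit, glmQLFTest, R 4.3.3), without a block. The SE is the size of the log2 fold change divided by the square root of F. Gene positions, lengths (MANE Select transcripts) and overlaps come from GENCODE on GRCh37, the build of the files. Alternatives are given in the closing section and included DESeq2 1.42.0. On simulated counts for this comparison (13546 genes, 200 changed by 2-fold), the edgeR fit recovered 199 with 3 false calls. The changed genes were drawn only from genes above a set mean count. The simulation therefore does not show how well smaller changes, such as those of the EMT genes, or changes at low counts are recovered.

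The 10 genes and all lists were chosen with earlier results of these data known. Named genes are the 10, up to 4 called genes of smallest p per list, and a fixed set (CTNNB1, CTNNA1, CTNND1, CDH3, CDH6, EPCAM, ESRP1, GRHL2, FN1, PRRX1, KRT8, KRT18, ESR2). A few marker genes were added for the check of the cells, and some list genes, such as FOXA2 and KLF4, after their values were seen. Older symbols were matched through reference tables, and 5 of 12 entries of the microRNA and antisense list had no match. Some marker genes are not reported here.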

Additional observations from a re-analysis of the deposited data

How the results depend on the processing

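Of the 10 EMT genes, 0 were called at 1.5-fold in each of the 11 alternative fits and with an unadjusted p, and also in each fit without 1 sample, where the number ranged from 0 to 0. At an adjusted p under 0.05 with any fold change the number was 3. Over all tested genes, 874 were called, 567 with DESeq2, 3245 at any fold change, and 659 to 979 without 1 sample. Offsets along the expression level gave 748 (356 higher, 392 lower) against 581 higher and 293 lower, and left SNAI2, CDH2 and VIM past an adjusted p of 0.05. The log2 ratio of CDH2 counts to the limit of CDH1 was at least 10.48 and was 10.48 to 10.62 without 1 sample. Directions turned for ZEB1 and TWIST1, whose main values were near 0, and for TWIST2, whose main value was -0.17. ZEB1 was -0.04 without control replicate 1 and -0.01 without Liq replicate 2. TWIST1 was 0.06 without control replicate 1 and 0.04 without Liq replicate 1, in a range of -0.12 to 0.06. TWIST2 was 0.03 without Liq replicate 2, in a range of -0.38 to 0.03. The cause was not tested. With the replicate number as a block, 0 EMT genes and 898 genes in all were called, and ZEB2 had a log2 fold change of -0.17 with an adjusted p of 0.0109 (edgeR). The numbers are not said to pair the samples, and the correlation across genes between same-numbered samples, after each group mean was removed, was 0.0483. A group of 1 sample was assumed to vary like the other group. For CDH1 and CDH11 the depth gives only an upper limit.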
